A study of Homo sapiens with 30 samples.

Results

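The 78 nuclear genes named as mitochondrial ribosomal protein genes were followed across 30 RNA-seq libraries of HT29, a long-established cell line from a human colorectal adenocarcinoma. They were chosen by name, as the protein-coding genes whose symbol is MRPL or MRPS followed by a number and at most 1 letter, and are 78 of the 60675 genes in the deposited table. All 78 passed the filter on low counts and are among the 18783 genes tested. Each extract group had received, for 24 h, a 70% ethanol extract of an herbal formula at 500, 100 or 20 µg/mL. Bojungikgi and Sayeok have 3 libraries at each dose, Banhasasim has 2 (replicates 2 and 3) and Yijung has 1 (replicate 3). The vehicle group has 3 libraries of cells given 0.1% DMSO. Every group shares the cell line. Whether replicates came from separate cultures is not stated in the labels, so a p-value here covers no more than the spread of these libraries, which may be technical.

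Mitochondria keep a small genome of their own, and the few respiratory chain proteins it encodes are made inside the organelle by a dedicated ribosome. The 2 ribosomal RNAs of that particle, MT-RNR1 and MT-RNR2, come from the mitochondrial genome. Its proteins, in contrast, are all products of nuclear genes, made in the cytosol and imported, so the particle can be built only from the output of both genomes. Some of these proteins descend from the bacterial ribosome and others are additions found only in mitochondria. Colon epithelial cells and tumour cells, like most cells, rely on it for oxidative phosphorylation. By background knowledge the 78 genes split into 15 small subunit proteins with a bacterial counterpart, 11 small subunit proteins specific to mitochondria, 29 large subunit proteins with a bacterial counterpart and 21 specific to mitochondria, while MRPL55 and MRPS36 were left unclassed. MRPS30 and MRPS18A carry small subunit names but sit in the large subunit, and were counted there.

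Sequence upstream of the start site is shown for 6 genes on which the comparisons turn: MRPS10 for the dose comparison, MRPL19 and MRPS30 for levels above the vehicle, and MRPL54, MRPS34 and MRPL12 for levels below it. Each stretch is the 110 bases before the RefSeq start, read 5′ to 3′ on the strand of the gene, from build GRCh38.p14. Capitals mark the letters CCGGAAG or their reverse complement, the core bound by ETS factors such as GABPA, a known regulator of nuclear genes for mitochondrial proteins.
MRPS10, chr6:42217862-42217971, minus strand: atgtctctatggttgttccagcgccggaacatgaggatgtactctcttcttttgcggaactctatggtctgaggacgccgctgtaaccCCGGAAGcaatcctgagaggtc
MRPL19, chr2:75646673-75646782, plus strand: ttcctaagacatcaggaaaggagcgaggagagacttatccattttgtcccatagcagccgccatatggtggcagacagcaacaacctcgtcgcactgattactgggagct
MRPS30, chr5:44808837-44808946, plus strand: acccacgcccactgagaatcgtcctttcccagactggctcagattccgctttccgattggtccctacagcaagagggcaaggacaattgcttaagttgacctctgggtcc
MRPL54, chr19:3762572-3762681, plus strand: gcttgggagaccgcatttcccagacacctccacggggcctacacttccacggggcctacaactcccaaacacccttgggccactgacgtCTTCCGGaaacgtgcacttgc
MRPS34, chr16:1773135-1773244, minus strand: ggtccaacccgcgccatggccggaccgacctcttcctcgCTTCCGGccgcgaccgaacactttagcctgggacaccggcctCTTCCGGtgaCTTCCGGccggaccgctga
MRPL12, chr17:81703257-81703366, plus strand: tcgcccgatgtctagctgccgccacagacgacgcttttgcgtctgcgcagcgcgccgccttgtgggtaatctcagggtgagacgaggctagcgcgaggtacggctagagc
The MRPS34 stretch holds the ETS letters at 3 places, those of MRPS10 and MRPL54 at 1 place each, and the stretches of MRPL19, MRPS30 and MRPL12 at none.

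RefSeq promoter windows, from 250 bases before to 50 bases after the start, were found for 69 of the 78 genes, with more than 1 window for 11 of them. The ETS letters CCGGAAG, on either strand, were in a window of 30 of the 69 genes (43.5%), against 12.2% of all 27305 genes with a window. AAGATGGCG, a core of YY1 sites, was present in 13 of the 69 (18.8%), against 2.14% of all. The palindromic motif of NRF1 was in 9 (13%) against 6.98%, and the E-box CACGTG, which MYC binds, was also in 9 (13%) against 8.77%. The CCAAT letters were in 23 (33.3%) against 39.7%, and the GC box GGGCGG in 42 (60.9%) against 48.3%. A CCGGAAG match and an AAGATGGCG match can share the bases AAG. The 27305 genes were not limited to those tested here, and no comparison with expressed genes alone was made. Matches of this kind are descriptions of the letters in the window, and no binding was measured.

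The genes were moderately expressed. Their mean level over 30 libraries ran from 7.64 CPM (normalised counts-per-million) for MRPL23 to 171 CPM for MRPS35, with a median of 44.5 CPM, against a median of 10.4 CPM over all genes tested. The lowest value of any of the 78 in any library was 5.1 CPM, for MRPL23, far above the floor of 3 counts, which was 0.0419 to 0.0827 CPM. Per kilobase of transcript, the highest levels were those of MRPL13 (124 CPM per kb), MRPL42 (110) and MRPL37 (101). The lowest were those of MRPS23 (6.08 CPM per kb), MRPS11 (7.54) and MRPL22 (8.89), whose chosen transcripts are long. The order depends on the length used, since per kilobase of coding length MRPL37 ranked 20 and MRPS23 ranked 52 of the 78. The SD of log2 CPM within groups was between 0.0352 and 0.206 across the genes (median 0.113), and group means spanned between 0.0858 and 0.757 (median 0.291) on the log2 scale. MRPS30 had the smallest SD within groups, and MRPL54 had both the largest SD and the widest span.

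Large subunit genes with a bacterial counterpart had a median of 44.6 CPM per kb and those specific to mitochondria had 26.4. The medians of small subunit genes were 41.7 and 35.6 CPM per kb. Of the 78 genes, 22 are overlapped on the other strand, and 8 on the same strand, by a gene above 10% of their level. The strand setting of the counting is not given, so reads of these genes and their neighbours may not have been separated.

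Summed small subunit CPM divided by summed large subunit CPM stayed between 0.524 and 0.552 in the 27 extract libraries and between 0.535 and 0.543 in the 3 vehicle libraries, so the ranges overlap.

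Depth was between 36274000 and 71626000 expected counts per library, to the nearest 1000. Of 10 markers of colon epithelium, 7 were at 146 CPM or above in every library, among them EPCAM at 496 to 629 CPM and KRT8 at 4900 to 7440 CPM. The other 3 were low: the intestinal transcription factors CDX1 (0.832 to 1.64 CPM) and CDX2 (4.75 to 7.52 CPM), and CEACAM5 (4.58 to 8.66 CPM). The leukocyte marker PTPRC stayed at or under 0.0737 CPM and CD3E at or under 0.0234 CPM. LYZ, on the same leukocyte list, was at 1580 to 2020 CPM. The summed level of the 78 genes set 2 libraries apart. Vehicle replicate 1 had 5144 CPM, against 4495 and 4415 CPM in vehicle replicates 2 and 3. Bojungikgi 500 µg/mL replicate 2 had 3598 CPM, against 4320 and 4384 CPM in replicates 1 and 3, and the other extract libraries ran from 3847 to 4554 CPM. These libraries were also the extremes in the percentage of counts on transcripts under 1000 bases (11.8% in that vehicle library and 6.96% in that Bojungikgi library, 7.79% to 10.1% elsewhere) and on cytosolic ribosomal proteins (6.97% and 3.8%, with 4.63% to 5.94% elsewhere). Sample codes form 3 series, of which the vehicle has its own, Banhasasim shares one with Yijung, and Sayeok shares the last with Bojungikgi, so that vehicle and code series cannot be told apart.

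**Figure D1:**
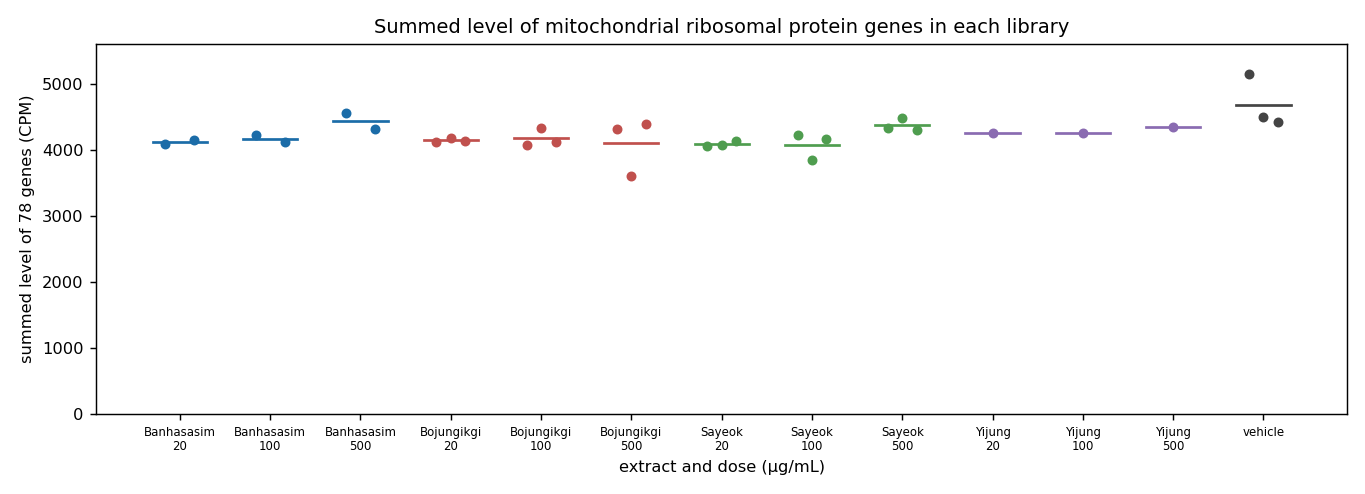
Summed level of the 78 genes (y axis, CPM) in each library (points) by extract and dose in µg/mL (x axis), with lines at group means. The Banhasasim and Sayeok libraries at 500 µg/mL lie between 4295 and 4554 CPM, 1 Bojungikgi library at 500 µg/mL is at 3598 CPM and 1 vehicle library is at 5144 CPM.

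The summed level of mitochondrial ribosomal protein mRNAs after TMM normalisation was slightly higher at 500 than at 20 µg/mL of Banhasasim or Sayeok. It was 4554 and 4315 CPM in the Banhasasim libraries at 500 µg/mL, against 4094 and 4154 CPM at 20 µg/mL. In Sayeok it was 4337, 4485 and 4295 CPM at 500 µg/mL, against 4055, 4071 and 4133 CPM at 20 µg/mL. In both extracts the libraries of the higher dose were above those of the lower dose with no overlap. As a plain share of counts the order in Banhasasim was the opposite: the 78 genes took 0.409% and 0.411% at 500 µg/mL, against 0.416% and 0.422% at 20 µg/mL. The TMM factors of these libraries were 0.8983 and 0.952 at 500 µg/mL, against 1.016 and 1.015 at 20 µg/mL. Of counts outside the mitochondrial genome the share was 0.492% and 0.467% at 500 µg/mL, against 0.454% and 0.457% at 20 µg/mL. In Sayeok the plain share was 0.434%, 0.445% and 0.426% at 500 µg/mL, against 0.416%, 0.407% and 0.42% at 20 µg/mL, again with no overlap. In Bojungikgi the sums were 4320, 3598 and 4384 CPM at 500 µg/mL, against 4113, 4184 and 4133 CPM at 20 µg/mL, and 1 library of the higher dose lay below all libraries of the lower dose. In bulk RNA, fewer cells of a type and less RNA per cell cannot be told apart.

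Gene by gene, the shifts were small and the tests called few of them. In Banhasasim 66 of the 78 genes had a positive log2 fold change for 500 against 20 µg/mL, with a median of 0.114, against a median of 0.005 over all genes tested. Without Banhasasim 500 µg/mL replicate 2 the median was 0.067, with 60 positive. MRPS10 was the 1 gene called higher at a Benjamini-Hochberg adjusted p under 0.05 (edgeR quasi-likelihood test), where 3.82% of all genes were called higher and 4% lower. In Sayeok 75 of the 78 were positive with a median of 0.109, against 0.004 over all genes. None of the 78 was called in Sayeok (1.14% of all genes were called higher and 2.03% lower), 6 (7.69%) had an unadjusted p under 0.05, against 13.9% of all genes, and DESeq2 called 0. In Bojungikgi 29 were positive, the median was -0.029, none was called by edgeR or DESeq2 (0.602% of all genes were called higher and 1.16% lower) and 0 had an unadjusted p under 0.05, against 12.9% of all genes. Without Bojungikgi 500 µg/mL replicate 2, that median was 0.072 with 66 of the 78 positive, and again none was called. It was -0.079 without replicate 1 and -0.096 without replicate 3 of that group.

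Groups that did not overlap were counted gene by gene. All Banhasasim libraries at 500 µg/mL lay above those at 20 µg/mL for 54 of the 78 genes (27.5% of all genes tested did so) and below for 5 (25.2%). For Sayeok 31 lay above (11.1% of all genes) and 0 below (10.9%). For Bojungikgi 3 lay above (9.7%) and 0 below (9.04%), and without replicate 2 of the higher dose 34 lay above (17.4% of all genes). That library had the lowest summed level of these genes, so its removal raises this count by construction. The 3 extracts were set up with their own libraries at both doses, so these counts share no control sample.

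Averaged over Banhasasim, Bojungikgi and Sayeok, 70 of the 78 genes had a positive log2 fold change for 500 against 20 µg/mL (median 0.063, against 0.004 over all genes). MRPS10 and MRPS35 were called higher and none lower, while 6.28% of all genes were called higher and 6.92% lower. The count depends on single libraries: it was 20 without Bojungikgi 500 µg/mL replicate 2 (7.84% of all genes were then called higher), 0 without replicate 2 of either Banhasasim dose, and between 0 and 20 over the 16 fits that each left out 1 library. Without both libraries that stand apart it was 37 higher and none lower, with all 78 positive and a median of 0.095, where 10.3% of all genes were called higher and 10% lower. These libraries were picked by the summed level of the same genes. Leaving out the Bojungikgi library, lowest in that sum, raises the change by construction, so the counts of 20 and 37 are no independent support for a dose shift. Without Bojungikgi 500 µg/mL replicate 3 the median was 0.036, with 61 positive.

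**Figure D2:**
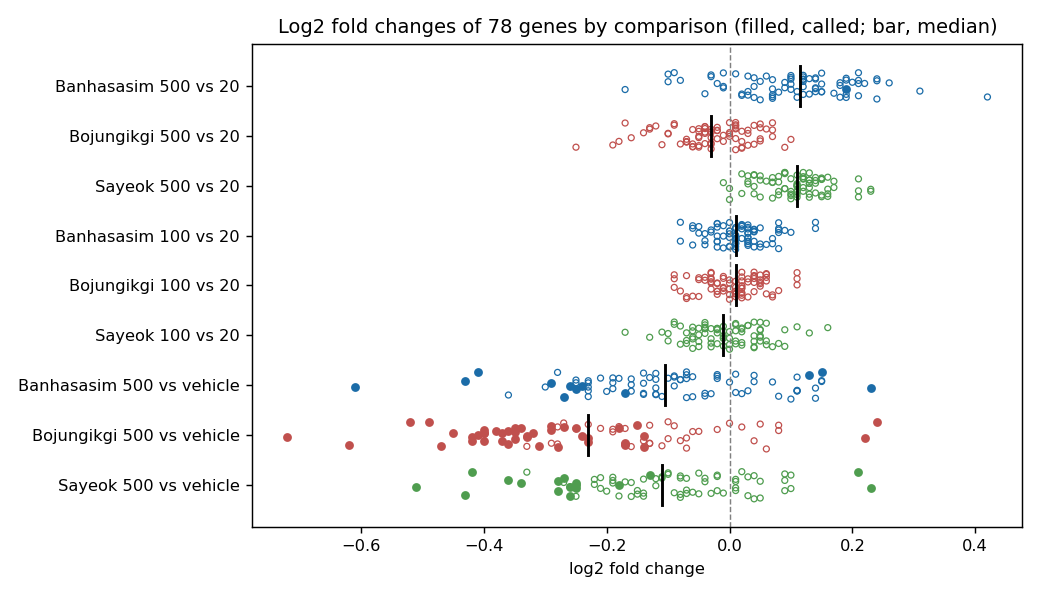
Log2 fold change (x axis) of each of the 78 genes (points) in 9 comparisons (rows; extract, dose in µg/mL). Filled points were called at an adjusted p under 0.05 and the bar is the median of the 78, which is 0.114 for Banhasasim and 0.109 for Sayeok at 500 against 20 µg/mL and -0.23 for Bojungikgi at 500 µg/mL against vehicle.

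MRPS10 (ENSG00000048544), the counterpart of bacterial ribosomal protein S10 in the head of the small subunit, lies at chr6:42206801-42217865 on the minus strand. Its level was 74.1 and 70.9 CPM in Banhasasim at 500 µg/mL, against 61.3 and 65.4 CPM at 20 µg/mL. The groups did not overlap, and the log2 fold change was 0.19 ± 0.05 (SE; edgeR, adjusted p = 0.0255). In Sayeok it was 64.4, 67.4 and 66.2 CPM at 500 µg/mL, against 61.2, 60.8 and 64.1 CPM at 20 µg/mL. In Bojungikgi it was 63.3, 60.4 and 63.6 CPM at 500 µg/mL, against 63.3, 62.8 and 64.5 CPM at 20 µg/mL, values that overlap. The average over the 3 extracts was a log2 fold change of 0.09 ± 0.03 (edgeR, adjusted p = 0.0382), a call lost when any 1 of 12 libraries was left out. The Banhasasim call was lost without replicate 2 of either dose (edgeR, adjusted p = 0.271 without that of 500 µg/mL and 0.273 without that of 20 µg/mL) and in a fit of the 2 groups alone (0.107).

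MRPS35 (ENSG00000061794), a small subunit protein specific to mitochondria, lies at chr12:27710773-27756295. It had 190 and 180 CPM in Banhasasim at 500 µg/mL, against 163 and 173 CPM at 20 µg/mL. In Sayeok the values were 169, 177 and 176 CPM at 500 µg/mL, against 166, 166 and 167 CPM at 20 µg/mL. In Bojungikgi they were 178, 164 and 178 CPM at 500 µg/mL, against 164, 170 and 167 CPM at 20 µg/mL. The groups overlapped in Bojungikgi and not in the other two. The average log2 fold change was 0.09 ± 0.03 (edgeR, adjusted p = 0.0302). Leaving out any 1 of 11 libraries, among them replicate 2 of Banhasasim at 500 µg/mL (0.16), ended that call.

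At 100 µg/mL the genes were close to their levels at 20 µg/mL. The median log2 fold change of the 78 was 0.013 in Banhasasim, 0.009 in Bojungikgi and -0.007 in Sayeok, with 52, 45 and 35 of the 78 positive. With 1 library left out these medians took either sign, from -0.001 to 0.037, -0.023 to 0.03 and -0.037 to 0.04. None was called by edgeR or DESeq2 in any of the 3 extracts, and none had an unadjusted p under 0.05 in edgeR, against 2.74%, 2.32% and 4.72% of all genes. Of all genes 0.0852%, 0.0106% and 0% were called in either direction. For Banhasasim 12 genes lay above without overlap (15.4% of all genes) and 4 below (14.2%), for Bojungikgi 5 above (4.49%) and 0 below (4.58%), and for Sayeok 3 above (4.69%) and 2 below (4.5%). Yijung, with 1 library per dose and no test, had summed levels of 4253, 4251 and 4346 CPM at 20, 100 and 500 µg/mL. The median log2 ratio of the 78 genes for Yijung 500 over 20 µg/mL (0.5 CPM added to each value) was 0.017 with 46 positive, against 0.005 over all genes.

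Whether the dose shift differed between extracts was tested with interaction terms. The 500 against 20 µg/mL change of Banhasasim minus that of Bojungikgi had a median of 0.146, with 69 of the 78 genes above 0, but edgeR and DESeq2 called none, 7 genes (8.97%) had an unadjusted p under 0.05 in edgeR, against 15.3% of all genes, and 1.31% of all genes were called higher and 0.745% lower. The median was 0.044 without Bojungikgi 500 µg/mL replicate 2 and 0.226 without replicate 3. For Banhasasim minus Sayeok the median was 0.001 with 39 above 0, none was called by either tool, 1 (1.28%) had an unadjusted p under 0.05, against 9.41% of all genes, and 0.745% of all genes were called higher and 0.298% lower. That median was -0.036 without Banhasasim 500 µg/mL replicate 2 and 0.046 without replicate 3.

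Against the vehicle, more mitochondrial ribosomal protein mRNAs were called lower than higher in extract-treated cells, also at the lowest dose. For the mean of 20 µg/mL Banhasasim, Bojungikgi and Sayeok against the vehicle, 72 of the 78 genes had a negative log2 fold change (median -0.196, against -0.006 over all genes). Of these, 41 were called lower and 2 other genes higher, where 15.2% of all genes were called lower and 13.7% higher. At 500 µg/mL, 41 were called lower and 2 higher in Bojungikgi (15.4% and 14.3% of all genes), 15 lower and 2 higher in Sayeok (8.27% and 8.33%), and 9 lower and 3 higher in Banhasasim (7.12% and 8.16%). The medians there were -0.23 in Bojungikgi, -0.109 in Sayeok and -0.105 in Banhasasim. These comparisons share the 3 vehicle libraries.

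Genes whose libraries lay wholly below the vehicle numbered 39 for the 20 µg/mL groups (12% of all genes) with 2 above (11.6%). At 500 µg/mL there were 33 below and 3 above in Bojungikgi (19.1% and 18.3%), 23 below and 3 above in Sayeok (16.9% and 16%) and 20 below and 11 above in Banhasasim (20.6% and 19.1%).

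Much of this moved with single libraries. Without vehicle replicate 1, 21 genes were called lower at 20 µg/mL (5.55% of all genes), 15 in Bojungikgi (7.94%), 3 in Sayeok (3.9%) and 2 in Banhasasim (5.5%). In Banhasasim 4 genes were then called higher (6.23% of all genes) and in Sayeok 2 (3.75%). The medians were then -0.122 at 20 µg/mL, with 69 of the 78 negative, -0.153 in Bojungikgi, -0.035 in Sayeok and -0.022 in Banhasasim. In Sayeok and Banhasasim the shares called lower were thus near or below those of all genes. Without Bojungikgi 500 µg/mL replicate 2, 17 genes were called lower and 2 higher in that extract (8.27% and 8.24% of all genes), with a median of -0.113, and without both libraries 5 and 2 (4.2% and 4.17%). Without Banhasasim 500 µg/mL replicate 3 the Banhasasim median was -0.064. The total called in Banhasasim was 0 without its 500 µg/mL replicate 3 (14 at an unadjusted p under 0.05) and 6 without its replicate 2, and the total in Sayeok was 8 without its 500 µg/mL replicate 2 and 7 without its replicate 3. In that order 3.6%, 4.1%, 4.77% and 4.78% of all genes were called lower and 4.22%, 6.26%, 4.71% and 5.68% higher. An edgeR fit of the 2 groups alone called 0 of the 78 in Banhasasim (15 at an unadjusted p under 0.05), 0 in Bojungikgi (28 at an unadjusted p under 0.05) and 9 in Sayeok. Such fits called few genes of any kind, 1.54%, 0.584% and 3.97% of all genes lower and 2.28%, 0.542% and 3.62% higher. The unadjusted counts of 14, 15 and 28 are not set beside the share of all genes in the same fits. No excess over all genes is read from them. A fit of the vehicle and the 20 µg/mL groups alone called 50 of the 78 lower and 2 higher, against 17.8% and 14% of all genes.

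The shift against the vehicle moved with transcript length and base composition. Across the 78 genes, which share the same libraries, the log2 fold change at 20 µg/mL against the vehicle had a Spearman correlation of 0.45 with transcript length and -0.56 with GC content, against 0.34 and -0.32 across 18642 genes. The 26 shortest transcripts (518 to 1076 bases) had a median of -0.3, the middle 26 had -0.25 and the 26 longest (1588 to 5621 bases) had -0.13. With a correction for length and GC content in each library the median of the 78 was -0.12, with 31 genes called lower and 4 higher, and in Bojungikgi at 500 µg/mL 19 were called lower and 4 higher. These corrected counts are not set beside the share of all genes called, so no excess over all genes is read from them. Extract and code series cannot be told apart in these comparisons.

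**Figure D3:**
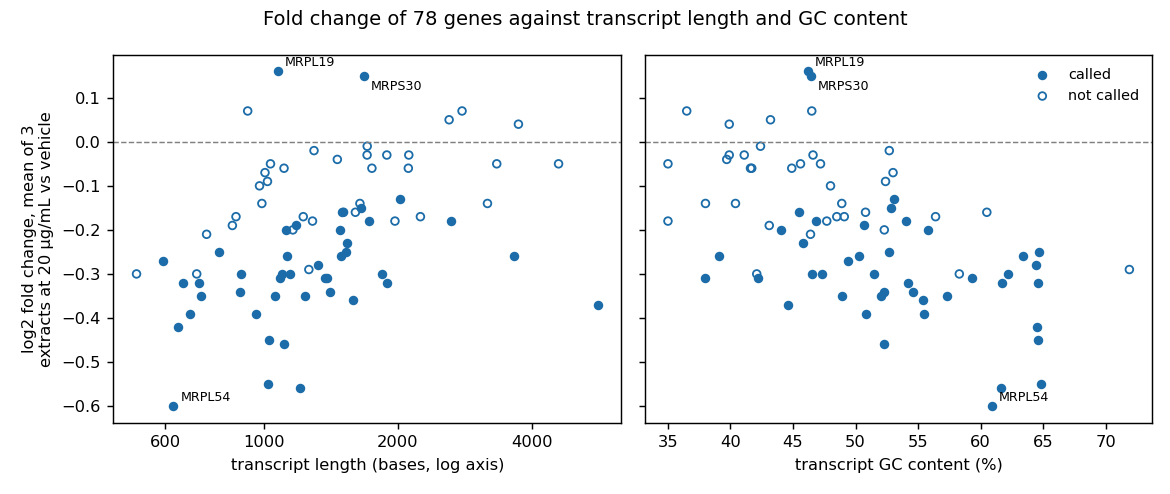
Log2 fold change of the mean of 3 extracts at 20 µg/mL against vehicle (y axis) for the 78 genes (points; filled, called at an adjusted p under 0.05) by transcript length (left, bases, log axis) and transcript GC content (right, percent). MRPL54 lies lowest at -0.6, and MRPL19 and MRPS30 lie highest at 0.16 and 0.15.

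Of the 78 genes, 12 had all 27 extract libraries below all 3 vehicle libraries (3.66% of all genes) and 2 had all of them above (2.94%). The 12 below were MRPL15, MRPL21, MRPL23, MRPL27, MRPL40, MRPL49, MRPL51, MRPL54, MRPS7, MRPS18A, MRPS22 and MRPS34, and the 2 above were MRPL19 and MRPS30. The same 12 and 2 met this without Bojungikgi 500 µg/mL replicate 2, and without vehicle replicate 1 the same 12 were below and MRPL30 joined the 2 above.

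MRPL19 (ENSG00000115364), the counterpart of bacterial L19 at the interface between the subunits, lies at chr2:75646783-75690851. It had 52.9 CPM in the lowest, 57.9 CPM in the median and 61.9 CPM in the highest of the 27 extract libraries, against 51.2, 51.2 and 50.7 CPM in the 3 vehicle libraries. Every vehicle library lay below every extract library. The log2 fold change was 0.23 ± 0.05 in Banhasasim at 500 µg/mL (edgeR, adjusted p = 0.00259), 0.22 ± 0.04 in Bojungikgi (0.00083), 0.23 ± 0.04 in Sayeok (0.00102) and 0.16 ± 0.04 for the 20 µg/mL groups (0.00272). The Banhasasim call was lost without its 500 µg/mL replicate 3 (0.0719). GCFC2 overlaps it on the other strand and the gene ENSG00000270696 on the same strand, and its reads and theirs may not have been separated.

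MRPS30 (ENSG00000112996), a large subunit protein specific to mitochondria, lies at chr5:44808925-44820428. Its extract libraries ran from 90.5 to 102 CPM with a median of 94.2 CPM, against 84.8, 84.5 and 83.9 CPM in the vehicle libraries, with no overlap. The log2 fold change was 0.15 ± 0.04 in Banhasasim at 500 µg/mL (edgeR, adjusted p = 0.0187), 0.24 ± 0.04 in Bojungikgi (0.000124), 0.21 ± 0.04 in Sayeok (0.000588) and 0.15 ± 0.03 for the 20 µg/mL groups (0.00146). In Banhasasim the call was lost without its 500 µg/mL replicate 3 (0.278). MRPS27, a pentatricopeptide repeat protein of the small subunit, was also called higher in Banhasasim at 500 µg/mL (0.13 ± 0.04, edgeR adjusted p = 0.0406), a call lost without replicate 1 or 2 of the vehicle (0.112 and 0.107) or either Banhasasim library (0.142 and 0.161), with the replicate block (0.054) and in a fit of the 2 groups alone (0.238). PTCD2 overlaps MRPS27 on the other strand.

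MRPL54 (ENSG00000183617), a large subunit protein specific to mitochondria, lies at chr19:3762664-3768575 and showed the widest span of group means. Its lowest, median and highest extract libraries had 7.13, 10.8 and 13 CPM, against 21.2, 14.8 and 13.7 CPM in the vehicle libraries. The highest extract library came close to the lowest vehicle library, and vehicle replicate 1 stood well above the other two. The log2 fold change was -0.61 ± 0.17 in Banhasasim at 500 µg/mL (edgeR, adjusted p = 0.0212), -0.72 ± 0.15 in Bojungikgi (0.00199), -0.51 ± 0.15 in Sayeok (0.0271) and -0.6 ± 0.12 for the 20 µg/mL groups (0.0015). Without vehicle replicate 1 the value was -0.4 in Banhasasim (edgeR, adjusted p = 0.0977) and -0.31 in Sayeok (0.196), which ended both calls, and -0.39 for the 20 µg/mL groups (0.0363). Leaving out either Banhasasim library at 500 µg/mL, or Sayeok 500 µg/mL replicate 2 or 3, ended the call of that extract (0.0741, 0.174, 0.086 and 0.115).

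MRPS34 (ENSG00000074071), a small subunit protein specific to mitochondria, lies at chr16:1771890-1773155 on the minus strand. It ran from 56.5 to 73.8 CPM in extract libraries with a median of 65.2 CPM, against 107, 86.1 and 80.6 CPM in the vehicle libraries, and the groups did not overlap. The log2 fold change was -0.41 ± 0.1 in Banhasasim at 500 µg/mL (edgeR, adjusted p = 0.00977), -0.49 ± 0.09 in Bojungikgi (0.000632), -0.42 ± 0.09 in Sayeok (0.00411) and -0.55 ± 0.08 for the 20 µg/mL groups (3.83e-05). Without vehicle replicate 1 the Banhasasim value was -0.28 (edgeR, adjusted p = 0.0503), and without replicate 2 or 3 of Banhasasim 500 µg/mL the adjusted p was 0.0621 and 0.0847.

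MRPS12 (ENSG00000128626), the counterpart of bacterial S12 at the decoding site, lies at chr19:38930548-38933162, where SARS2, the gene for mitochondrial seryl-tRNA synthetase, overlaps it on the other strand. It ran from 51.5 to 89.4 CPM in extract libraries, with a median of 74.5 CPM, against 133, 101 and 87.8 CPM in the vehicle libraries, so that 1 vehicle library fell inside the extract range. The log2 fold change was -0.62 ± 0.14 in Bojungikgi at 500 µg/mL (edgeR, adjusted p = 0.00281), -0.43 ± 0.14 in Sayeok (0.04) and -0.56 ± 0.11 for the 20 µg/mL groups (0.00136). Leaving out vehicle replicate 1 or 2 or Sayeok 500 µg/mL replicate 2 or 3 ended the Sayeok call. Without vehicle replicate 1 the values were -0.25 in Sayeok (edgeR, adjusted p = 0.277) and -0.37 for the 20 µg/mL groups (0.0357).

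MRPL12 (ENSG00000262814), the counterpart of the bacterial L7/L12 stalk protein that recruits translation factors, lies at chr17:81703357-81707526. It ran from 68.7 to 99.8 CPM in extract libraries with a median of 82.6 CPM, against 132, 103 and 94 CPM in the vehicle libraries, and the ranges overlap. The log2 fold change was -0.4 ± 0.1 in Bojungikgi at 500 µg/mL (edgeR, adjusted p = 0.00545), -0.34 ± 0.1 in Sayeok (0.0247) and -0.45 ± 0.08 for the 20 µg/mL groups (0.000553). Leaving out vehicle replicate 1 or Sayeok 500 µg/mL replicate 2 or 3 ended the Sayeok call. Without vehicle replicate 1 the values were -0.19 in Sayeok (edgeR, adjusted p = 0.204) and -0.29 for the 20 µg/mL groups (0.0146).

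**Figure D4:**
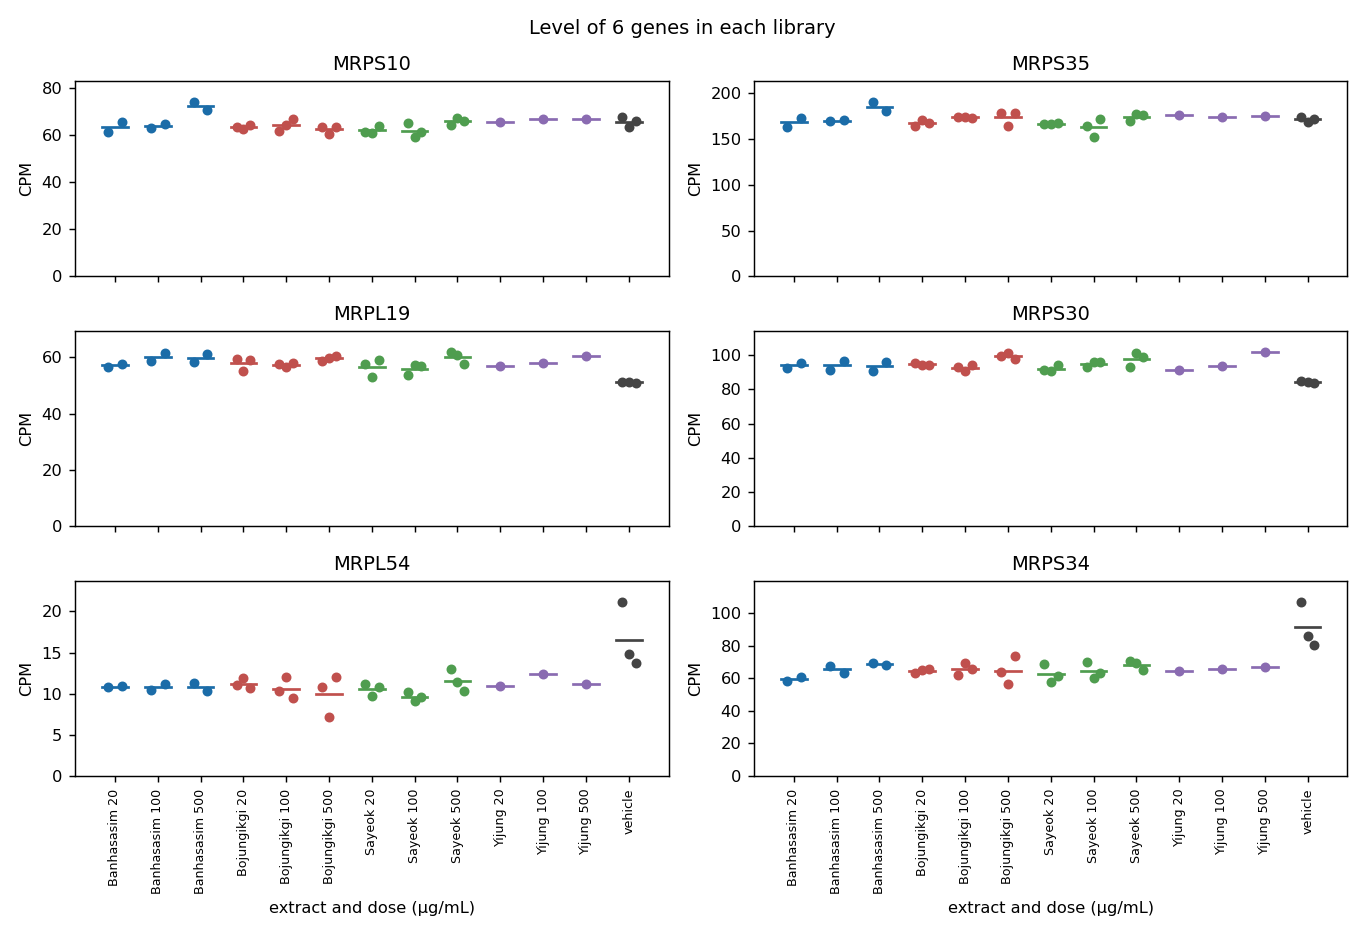
Level (y axis, CPM from 0) of MRPS10, MRPS35, MRPL19, MRPS30, MRPL54 and MRPS34 in each library (points) by extract and dose in µg/mL (x axis), with lines at group means. The vehicle libraries of MRPL19 (50.7 to 51.2 CPM) and MRPS30 (83.9 to 84.8 CPM) lie below every extract library, and those of MRPL54 and MRPS34 lie above every extract library.

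Further genes were called lower, among them MRPL27, MRPS7 and MRPS18A in all 3 extracts at 500 µg/mL. MRPL27, the counterpart of bacterial L27 near the peptidyl transferase centre, had a log2 fold change of -0.43 ± 0.1 in Banhasasim at 500 µg/mL (edgeR, adjusted p = 0.00476), and MRPS7, the counterpart of S7, had -0.27 ± 0.07 (0.0108). MRPS18A, 1 of 3 human relatives of bacterial S18, had -0.29 ± 0.08 in Banhasasim at 500 µg/mL (0.0125). MRPS7 is overlapped on the other strand by GGA3 and MIF4GD. The relative of MRPS18A named MRPS18B, overlapped on the other strand by PPP1R10, had -0.23 ± 0.06 in Bojungikgi and -0.25 ± 0.06 in Sayeok (0.00416 and 0.00394), and the remaining relative, MRPS18C, was called in no comparison. In Banhasasim at 500 µg/mL, the calls of MRPL27, MRPS7 and MRPS18A were lost without replicate 3 of that group (0.112, 0.136 and 0.154), and those of MRPS7 and MRPS18A also without vehicle replicate 1 (0.0622 and 0.0736). MRPL23, the counterpart of L23 at the exit of the peptide tunnel, had -0.42 ± 0.1 for the 20 µg/mL groups (edgeR, adjusted p = 0.00256). In Bojungikgi at 500 µg/mL it had -0.52 ± 0.12 (0.00223), a call lost with the length and GC correction (0.0524) and without both libraries that stand apart (-0.29, 0.0859). MRPL41, a mitochondrion-specific protein of the large subunit, had -0.47 ± 0.14 in the same comparison (0.019), a call lost with that correction (0.258) and without vehicle replicate 1 (0.128) or Bojungikgi 500 µg/mL replicate 2, where the value was -0.28 (0.115). MRPL52 had -0.4 ± 0.11 in Bojungikgi at 500 µg/mL (0.00941), -0.36 ± 0.11 in Sayeok (0.0298) and -0.46 ± 0.09 for the 20 µg/mL groups (0.000957). Its Sayeok call was lost without vehicle replicate 1 (0.191) or any 1 of the 3 Sayeok libraries (0.066 to 0.104). MRPL58, also known as ICT1, is a peptidyl-tRNA hydrolase built into the large subunit. It had -0.31 ± 0.11 in Bojungikgi at 500 µg/mL (0.0428) and -0.3 ± 0.09 for the 20 µg/mL groups (0.0159).

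Genes of both subunits and of both evolutionary classes were called lower. Of all genes, 15.2% were called lower and 13.7% higher for the 20 µg/mL groups against the vehicle. In that comparison 28 of 50 large subunit genes (56%) were called lower and 2 higher (median -0.24). Of 26 small subunit genes 12 (46.2%) were called lower and 0 higher (median -0.18). Among genes with a bacterial counterpart 25 of 44 were lower and 1 higher (median -0.22), and among those specific to mitochondria 15 of 32 were lower and 1 higher (median -0.2). For 500 against 20 µg/mL the large and small subunit medians were 0.11 and 0.13 in Banhasasim, 0.12 and 0.09 in Sayeok and -0.031 and -0.001 in Bojungikgi. No difference between these classes was tested.

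The 5 mitochondrial ribosomal proteins with other kinds of symbol, DAP3, PTCD3, CHCHD1, AURKAIP1 and GADD45GIP1, held calls in both directions. For the 20 µg/mL groups against the vehicle GADD45GIP1 (-0.41 ± 0.1, edgeR adjusted p = 0.00392), AURKAIP1 (-0.32 ± 0.1, 0.0169) and CHCHD1 (-0.37 ± 0.12, 0.0261) were called lower and PTCD3 (0.1 ± 0.03, 0.0305) higher. The shares of all genes called there were 15.2% lower and 13.7% higher. For 500 against 20 µg/mL averaged over the extracts edgeR called none of the 5 and none had an unadjusted p under 0.05.

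Proteins that assemble the particle were measured for 27 genes. For 500 against 20 µg/mL averaged over the extracts, 2 were called higher, NGRN (0.13 ± 0.03, edgeR adjusted p = 0.000682), which is needed for the stability of the large ribosomal RNA, and MRM2 (0.1 ± 0.03, 0.0109), which methylates that RNA, and none was lower. Those 2 are 7.41% of the list, near the 6.28% of all genes called higher. Against the vehicle at 20 µg/mL 12 (44.4%) were lower, against 15.2% of all genes, and 1 was higher, among the lower the GTPase MTG2 (-0.22 ± 0.04, 0.000212) and the small subunit chaperone ERAL1 (-0.26 ± 0.05, 0.000963). Of 16 mitochondrial translation factors 2 were called higher for 500 against 20 µg/mL, the elongation factor TUFM (0.1 ± 0.03, 0.0263) and TACO1 (0.11 ± 0.04, 0.0385), an activator of COX1 translation, which is 12.5% of the list, against 6.28% of all genes. At 20 µg/mL against the vehicle 4 of the 16 (25%) were lower, against 15.2% of all genes, among them MTRFR (-0.32 ± 0.06, 0.000389). In the same comparison 2 (12.5%) were higher, against 13.7% of all genes, among them GUF1 (0.15 ± 0.04, 0.0106).

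The machinery that imports these proteins was represented by 23 genes. For 500 against 20 µg/mL averaged over the extracts 6 (26.1%) were called higher and none lower (median 0.083), against 6.28% and 6.92% of all genes. Those higher were led by HSPA9, the matrix chaperone of the import motor (0.18 ± 0.02, edgeR adjusted p = 9.68e-06), its exchange factor GRPEL1 (0.16 ± 0.03, 0.00115), TIMM44 (0.16 ± 0.03, 0.00166) and TIMM50 (0.14 ± 0.03, 0.00571). Against the vehicle at 20 µg/mL 12 (52.2%) were lower and 1 higher, against 15.2% and 13.7% of all genes, with the pore protein TOMM40 at -0.31 ± 0.05 (7.35e-05). Of 12 transcription regulators of mitochondrial genes none was called by edgeR for 500 against 20 µg/mL averaged over the extracts and 4 (33.3%) had an unadjusted p under 0.05, against 25.1% of all genes. At 20 µg/mL against the vehicle 25% of these 12 were called lower and 8.33% higher, against 15.2% and 13.7% of all genes. GABPA was higher there (0.3 ± 0.05, 0.00016), and NRF1 was among those lower (-0.2 ± 0.05, 0.00467).

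Beside the 78 genes stand 2 other lists of highly expressed housekeeping genes. In Banhasasim at 500 against 20 µg/mL the median was 0.17 for 84 cytosolic ribosomal protein genes and 0.11 for 76 nuclear respiratory chain genes, beside 0.114 for the mitochondrial ribosomal proteins. In Sayeok these medians were 0.081 and 0.094, beside 0.109, and in Bojungikgi -0.133 and -0.12, beside -0.029. For the 20 µg/mL groups against the vehicle they were -0.269 and -0.246, beside -0.196, with 46 of 84 (54.8%) and 33 of 76 (43.4%) genes called lower and 0 and 2 called higher. Of all genes 15.2% were called lower and 13.7% higher. None of these differences between lists was tested.

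**Figure D5:**
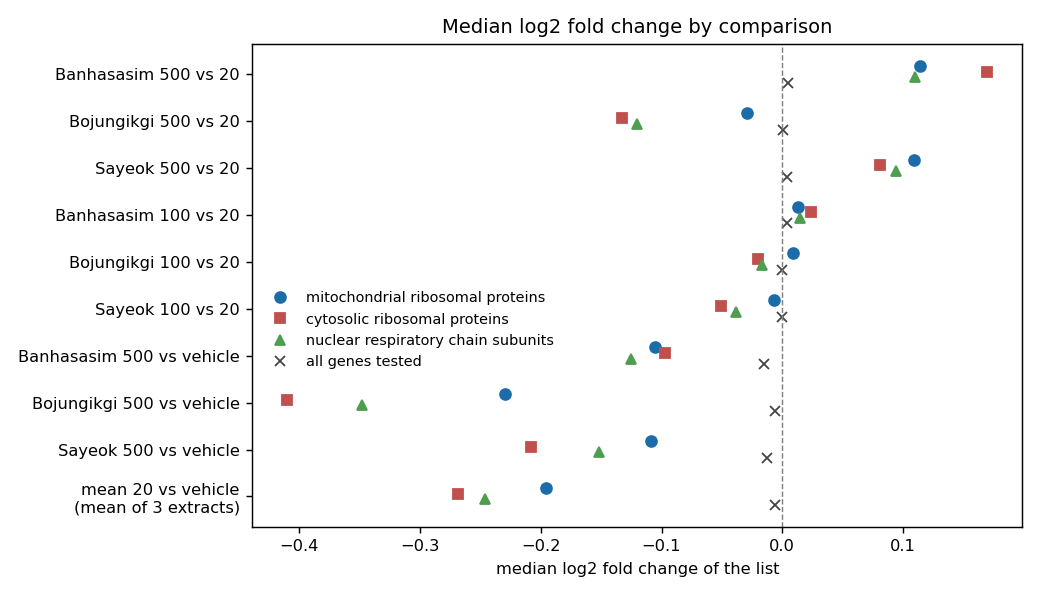
Median log2 fold change (x axis) in 10 comparisons (rows; extract, dose in µg/mL) of 78 mitochondrial ribosomal protein genes, 84 cytosolic ribosomal protein genes, 76 nuclear respiratory chain genes and all 18783 genes tested. All genes stay between -0.02 and 0.01, while the lists lie above 0 for Banhasasim and Sayeok at 500 against 20 µg/mL and below 0 in each comparison with the vehicle.

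The ribosomal RNAs of the same particle were far higher at 500 than at 20 µg/mL of Banhasasim. MT-RNR1 had 31800 and 23500 CPM in the Banhasasim libraries at 500 µg/mL, against 1240 and 1080 CPM at 20 µg/mL, and MT-RNR2 had 111000 and 75300 CPM against 9520 and 8850 CPM. The log2 fold changes were 4.57 ± 0.17 and 3.35 ± 0.16 (SE; edgeR, adjusted p = 6.07e-14 and 3.22e-12), beside a median of 0.114 for the 78 protein genes in the same libraries. Transcripts of the mitochondrial genome took 16.9% and 12% of counts there and 6.06% to 9.42% elsewhere, and with those genes removed the averaged 500 against 20 µg/mL test called 0 of the 78. The rise lay in the ribosomal RNAs, at 12.9% and 9.41% of counts, against 1.09% and 1.01% at 20 µg/mL of Banhasasim. The mRNAs of that genome took less, 3.99% and 2.56% against 7.27% and 6.76%. Of these mRNAs 38.5% were called lower and 0% higher, against 4% and 3.82% of all genes.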

How the data were processed

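Gene-level expected counts were estimated by the authors from directional, paired 100-base reads, and the submitters' processing notes name RSEM 1.3.3, STAR 2.7.3a, Trim Galore 0.6.5 and FastQC 0.11.9, with build GRCh38. Neither the strand setting nor the annotation release is given in the sources used here. The deposited table of expected counts holds 60675 genes, and 30 of its 270 columns were used, while 240 columns that match none of the labelled samples were left out. Counts were rounded to whole numbers (25.48% of values above 0 were not whole).

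Levels are counts-per-million values (CPM) after TMM normalisation. edgeR 4.0.16 in R 4.3.3 fitted a quasi-likelihood model over 13 groups and 30 libraries (17 residual degrees of freedom), after its filter on low counts (minimum count 10) had left 18783 genes. Tests were two-sided with Benjamini-Hochberg adjustment over all genes tested, and called means an adjusted p under 0.05. Standard errors were taken from the fold change and the F statistic. Dispersion corresponded to a biological coefficient of variation of 6.38%. Yijung, with 1 library a dose, entered the fit and no test. Code was tested on simulated data. Gene positions, transcript lengths and GC content came from GENCODE release 29, with 1 transcript of middle length per gene.

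Members and gene lists were chosen with earlier results of these data known. In each comparison up to 5 higher and 5 lower called genes with the largest fold change and at least 5 CPM in 1 group were named, with genes of textbook function and, of each other list, up to 4 with the smallest p. Alternatives were DESeq2 1.42.0, other size factors, no filter, removal of mitochondrially encoded genes, a replicate block, a length and GC correction, fits of the compared groups alone and leaving out each library, and, added after seeing the data, leaving out vehicle replicate 1 and Bojungikgi 500 µg/mL replicate 2 together. Wortmannin, hot water extracts and another DMSO level, also mentioned in the protocols, were not analysed here.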

Additional observations from a re-analysis of the deposited data

How the results depend on the processing

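Counts of called genes, out of 78, depended on single libraries. With 1 library left out they ran from 0 to 1 for Banhasasim 500 against 20 µg/mL, 0 to 20 for the averaged 500 against 20 µg/mL, 0 to 16 for Banhasasim 500 µg/mL against vehicle, 17 to 52 for Bojungikgi, 5 to 24 for Sayeok and 23 to 48 for the 20 µg/mL groups, and stayed at 0 for the other 500 or 100 against 20 µg/mL comparisons and for both differences between extracts. Without both libraries that stand apart, 37 were called for the averaged dose comparison, 7 for Bojungikgi against vehicle and 1 for the Banhasasim minus Bojungikgi difference. Those libraries were picked by the summed level of the same genes, so these counts are not independent of that choice. The averaged dose comparison called 1 with RLE or upper-quartile factors, 0 without mitochondrially encoded genes, 4 without the filter, 14 with the length and GC correction and 0 in a fit of its own groups. Without the filter, 3, 1 and 3 were called for 500 against 20 µg/mL of Banhasasim, Bojungikgi and Sayeok, 19 and 26 for Banhasasim and Sayeok against vehicle, and 4 and 1 for Banhasasim minus Bojungikgi and minus Sayeok. With the length and GC correction these dose counts were 7, 1 and 1, Bojungikgi against vehicle had 23, and the differences had 2 and 1. Counts with that correction, without the filter or with other size factors are not set beside the share of all genes called. The same holds here for the ranges with 1 library left out, and no excess over all genes is read from any of these. Fits of the compared groups alone called 3 in Banhasasim and 3 in Sayeok for 500 against 20 µg/mL, 0, 0 and 9 for Banhasasim, Bojungikgi and Sayeok against vehicle, and 1 for Banhasasim minus Sayeok. For the 20 µg/mL groups against vehicle such a fit called 50 lower and 2 higher, against 17.8% and 14% of all genes. For 500 against 20 µg/mL such fits called 3.06% of all genes higher in Banhasasim and 1.73% in Sayeok. The cause was not tested. DESeq2 moved no count by over 1.5 times, and no named gene reversed its direction: 430 values kept their call and 94 lost it. Depth does not limit detection of any of the 78, since their lowest value was 5.1 CPM.

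In no comparison did every same-number correlation of deviations exceed 0.1. With 2 or 3 libraries a group, such correlations cannot tell whether same-numbered replicates shared a culture or a day. The replicate block called 2 for the averaged dose comparison, 1 for Banhasasim 500 against 20 µg/mL, 11, 43 and 18 for Banhasasim, Bojungikgi and Sayeok 500 µg/mL against vehicle and 41 for the 20 µg/mL groups, moved no count by over 1.5 times and ended 1 call of a named gene, MRPS27 in Banhasasim against vehicle (0.12, edgeR adjusted p = 0.054). Counts with the block cover both directions and are not set beside the share of all genes called, so no excess is read from them.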
